A study of Mus musculus with 13 samples.

Results

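The TWEAK receptor and a group of relatives from the tumor necrosis factor (TNF) receptor family were followed in glomerular RNA during experimental membranous nephropathy (MN). The group was a list of 9 named genes, the TWEAK receptor *Tnfrsf12a*, its ligand *Tnfsf12*, and the receptors *Tnfrsf1a*, *Tnfrsf1b*, *Fas*, *Tnfrsf21*, *Tnfrsf10b*, *Tnfrsf19* and *Tnfrsf11b*, out of 35967 gene symbols in the expression table. All 9 passed the filter on low values, which required 4 or more libraries with a TPM of 1 or higher and which 14322 genes passed.

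Wild-type Balb/c mice received 2 mg of rabbit IgG into the peritoneum, and glomeruli, the filtering units of the kidney, were isolated and sequenced with 1 library per mouse. Controls received preimmune rabbit IgG (n = 5), and MN mice received rabbit IgG against THSD7A, a podocyte protein and human MN autoantigen, and were killed at day 1 (n = 4) or day 5 (n = 4). Control mice of both days form a single group, and neither the labels nor the methods tell on which day each of them was killed. The methods describe male mice of 14 to 15 weeks for induction of the disease but do not give the age of the sequenced mice separately. No transgene or deletion was carried by these groups, and the antibodies are a passive transfer from rabbit.

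TWEAK is a cytokine of the TNF family, and the product of *Tnfrsf12a*, also called Fn14, is its small receptor. Fn14 has no death domain, is scarce in most resting tissues and is induced by growth factors and injury, and it passes its signal through TRAF adaptors to the NF-κB pathways. In the kidney, TWEAK and Fn14 are known for roles in tubular and glomerular injury. Other receptors of the family act in different ways. TNFR1, Fas, DR5 and DR6 carry death domains, TNFR2 and TROY bind TRAF adaptors without a death domain, and osteoprotegerin is a secreted decoy.

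Values are TPM, transcript abundances corrected for length and rescaled to a fixed total per library, so that levels of different genes can be set side by side. Fold changes and tests come from limma on the log2(scaled TPM + 0.5) scale, and a gene was called when its Benjamini-Hochberg adjusted p over all 14322 genes was under 0.05 and its absolute log2 fold change was above 0.5. Markers of the labelled tissue were present, with 8 podocyte genes summing to 6791 to 9168 TPM and 7 glomerular endothelial genes to 4639 to 5958 TPM per library. In glomerular RNA of mixed cells, fewer cells of a type and less RNA per cell cannot be told apart.

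*Tnfrsf12a* rose at both days of MN, and it was the only member called in these comparisons. Its TPM in the 5 control libraries was 38.7, 27.8, 40.9, 39.5 and 42.5. In the 4 day 1 MN libraries it was 86.4, 108.7, 67.3 and 97.0. In the 4 day 5 MN libraries it was 109.1, 89.8, 59.0 and 62.2. Every MN library lay above every control library at both days, and the day 5 libraries fell into a higher and a lower pair, with the lower pair still above the highest control. Coefficients of variation were 15.3% over the control libraries, 19.5% over the day 1 libraries and 29.8% over the day 5 libraries.

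The log2 fold change of *Tnfrsf12a* was 1.27 at day 1 (standard error 0.21, 95% confidence interval 0.82 to 1.73, adjusted p = 0.0395, limma). This interval spans a 1.77-fold to 3.31-fold increase. At day 5 the log2 fold change was 1.07 (standard error 0.21, 95% confidence interval 0.62 to 1.52, adjusted p = 0.00776, limma), an interval of 1.54-fold to 2.88-fold. The day 5 level was not shown to differ from the day 1 level, with a difference of -0.20 (95% confidence interval -0.68 to 0.28, adjusted p = 0.737, limma), and day 1 and day 5 libraries overlapped. The 2 comparisons with control share the control libraries.

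**Figure D1:**
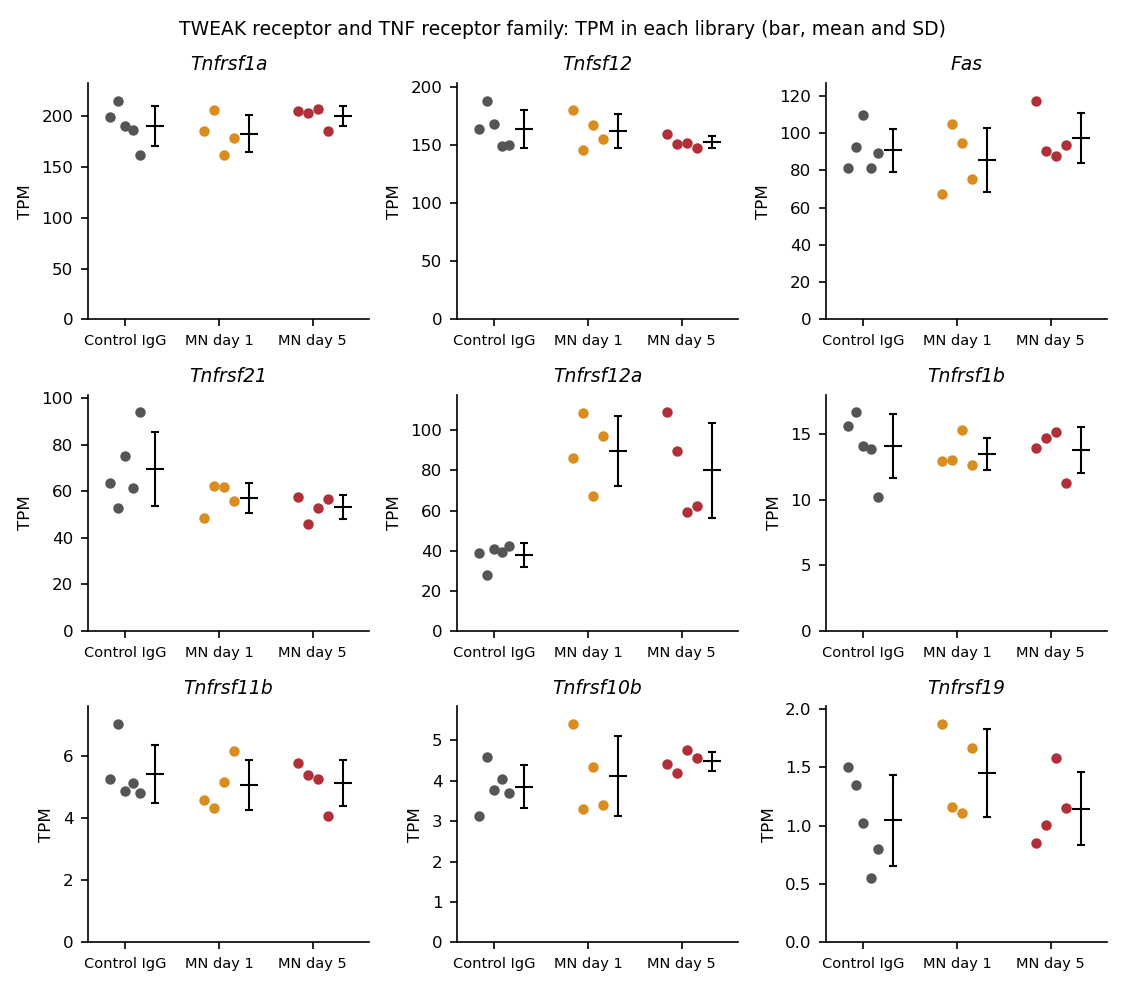
TPM of each of the 9 genes in each library (points, in replicate order within a group), with the mean and SD of the group beside them, for control IgG (n = 5), day 1 MN (n = 4) and day 5 MN (n = 4). For *Tnfrsf12a* the MN libraries begin at 59.0 TPM and the control libraries end at 42.5, while for the other 8 genes the groups overlap.

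With *Tnfrsf12a* alone, 1 of 9 members was called at each day, where 0.0908% of all tested genes were called at day 1 and 3.21% at day 5. By separation of the libraries alone, 1 of 9 members, again *Tnfrsf12a*, did not overlap with control at each day. The share of all tested genes, both directions together, was 4.22% at day 1 and 10.8% at day 5. Of all 14322 tested genes, 130 lay above control without overlap at day 1, as *Tnfrsf12a* did, and 726 at day 5. The members were chosen with earlier results of these data known, so these counts do not test whether the family changed more than other genes. The day 5 call was lost in fewer alternative fits than the day 1 call. When the 13 libraries were left out in turn it was never lost, with estimates of 0.89 to 1.22 on the log2 scale and adjusted p from 0.0062 to 0.0356 (limma). The day 1 call held in 5 of those 13 fits, although the log2 fold change stayed between 1.16 and 1.41. It was lost without control replicate 1 (adjusted p = 0.104), 2 (0.0757), 3 (0.115) or 4 (0.0828), without day 1 replicate 1 (0.136), 2 (0.132) or 4 (0.101), and without day 5 replicate 2 (0.0583), all by limma.

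Tubular markers moved with day 1. A score of 17 proximal and distal tubule genes (mean z value) lay between 0.334 and 1.41 in day 1 MN libraries, between -1.52 and 0.882 in control libraries and between -0.600 and -0.318 in day 5 MN libraries. The 9 proximal tubule genes summed to 860 to 1295 TPM at day 1 against 411 to 1456 in control, and the 8 genes of the loop, distal tubule and collecting duct to 538 to 976 against 272 to 550. At day 1, 0 of the 9 proximal genes were called (limma, 6 with an unadjusted p under 0.05) and 1 of the 8 others, *Pvalb* of the distal tubule (log2 fold change 1.43, adjusted p = 0.0395, limma), with 5 of those 8 at an unadjusted p under 0.05. In all, 4 of these 8 genes, *Pvalb*, *Calb1*, *Slc12a3* and *Kcnj1*, lay above control without overlap at day 1. This held for 130 of all 14322 tested genes. Of all tested genes, 12.6% had an unadjusted p under 0.05 at day 1 and 20.1% at day 5 (limma). None of these 17 markers was at 0 in a library. With the score as a covariate, *Tnfrsf12a* had a log2 fold change of 1.00 at day 1 that was not called (adjusted p = 0.303, limma). The score and day 1 partly go together, so this fit cannot fully tell them apart. In that fit 0 of all 14322 genes were called at day 1, and 1193 had an unadjusted p under 0.05 (1799 without the covariate). At day 5 the gene was still called with this covariate. Of the 8 podocyte markers, 0 were called at either day (limma, 2 with an unadjusted p under 0.05 at day 1 and 3 at day 5), and *Synpo* lay below control without overlap at both days (day 5 log2 fold change -0.46, adjusted p = 0.00197, limma), under the threshold of size. Of the 7 endothelial markers, 0 were called at either day (limma, 0 and 3 with an unadjusted p under 0.05), all 7 estimates were above 0 at day 5, and *Emcn* lay above control without overlap at day 5 (0.29, adjusted p = 0.0127, limma). Leukocyte markers were low throughout, with 12 genes summing to 15.7 to 34.7 TPM in control, 25.4 to 42.9 at day 1 and 19.2 to 40.8 at day 5, and 0 of the 7 that passed the filter were called (limma, 1 with an unadjusted p under 0.05 at each day). The 3 markers of parietal epithelium summed to a median of 12.9 TPM in control, 17.3 at day 1 and 21.8 at day 5, with MN libraries (from 16.2) above control libraries (up to 15.4). Of these markers *Cldn1* was called at day 5, with 4.55 to 6.24 TPM in control and 9.10 to 15.96 at day 5 (adjusted p = 0.0036, limma). The other markers, *Pax8* and *Pax2*, were not called at either day and had their highest means at day 1. Mean TPM in control, day 1 and day 5 was 7.15, 9.87 and 8.46 for *Pax8*, and 0.761, 1.32 and 0.819 for *Pax2*. The sum thus rose through different genes at the 2 days. Immediate-early genes, which respond fast to stress and handling, summed to 420 to 487 TPM in control, 469 to 547 at day 1 and 463 to 505 at day 5. Of these 8 genes, 2 were called at day 1, *Egr1* and *Fosb* (0.0908% of all tested genes were called). At day 5 2 were called, *Egr1* and *Junb* (3.21% of all tested genes were called). The largest terms of the sum, *Jun* and *Dusp1* (control means 154 and 170 TPM), were not called. All 8 cell division genes were called at day 5, and 0 at day 1 (limma, 1 with an unadjusted p under 0.05). The part of the podocyte, endothelial, parietal, immediate-early and cell division genes in the *Tnfrsf12a* result was not tested.

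*Tnfrsf12a* lies on chromosome 17 of GRCm39 (chr17:23894416-23896468, minus strand), a short gene of 2053 bases. All of its 1965 exonic bases are also exonic in *Hcfc1r1*, a neighbour on the opposite strand, and 8 of the 11 *Hcfc1r1* transcripts in the annotation share bases with it. Whether reads were assigned by strand is not given in the sources used here, so reads of these genes may not be told apart. *Hcfc1r1* averaged 205 ± 6.39 TPM in the 5 control libraries (SD), 206 ± 8.31 in the 4 day 1 libraries and 249 ± 10.3 in the 4 day 5 libraries. The means of *Tnfrsf12a* in the same order were 37.9, 89.8 and 80.0 TPM. On the log2 scale *Hcfc1r1* differed from control by 0.05 at day 1 (adjusted p = 0.752, limma). At day 5 the difference was 0.31 (adjusted p = 0.00512, limma), a change that passed on its p and not on its size. The part of shared reads in the *Tnfrsf12a* result was not tested at either day.

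The bases just before the start of *Tnfrsf12a* are shown because this gene carries the change, and a stretch before *Fas*, a receptor that was not called, is shown beside it. Both are 30 bases, 5′ to 3′ on the gene's own strand, from RefSeq promoter windows matched exactly to GRCm39. Capitals mark the letters that matched a motif, EGR (GCGNGGGCG) in *Tnfrsf12a* and AP-1 (TGANTCA) in *Fas*.
Tnfrsf12a (chr17:23896456-23896485, minus strand): cccggaagGCGGGGGCGGGGGCGgagccgc
Fas (chr19:34267836-34267865, plus strand): cctgtgcagtggTGAGTCAgtgggtttccc
The motifs were searched on both strands of the 250 bases before each RefSeq gene start, for the 6 of 9 members with an entry. *Tnfrsf12a* held 2 overlapping EGR matches and 5 matches of the GC box (GGGCGG), some of which share letters with the EGR matches. EGR matches occurred in 4.70% of all 32851 RefSeq windows and GC boxes in 32.7%. *Fas* held 1 AP-1 match, found in 6.75% of windows, and 1 GC box. The annotation used here starts *Tnfrsf12a* 45 bases upstream of the RefSeq start, so the marked letters lie at that start. The kappaB motif (7.25% of windows), the CArG box (1.47%) and TATAAA (12.4%) were in none of the member windows. These matches describe letters in a window and say nothing of binding.

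*Tnfsf12*, which encodes TWEAK, was one of the most abundant members and was not called at either day. Its TPM was 163, 188, 168, 149 and 150 in control libraries. It was 180, 146, 167 and 155 at day 1 and 160, 151, 152 and 148 at day 5. All 3 groups overlapped, and the day 5 libraries lay closest together. The log2 fold change was 0.03 at day 1 (95% confidence interval -0.13 to 0.19, adjusted p = 0.903) and -0.06 at day 5 (95% confidence interval -0.22 to 0.10, adjusted p = 0.725), both by limma. The sign at day 1 turned without further scaling of the TPM (-0.01). As folds of control, these intervals run from 0.859 to 1.14 over both days, below the lowest bound of 1.54 for its receptor.

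The ratio of receptor to ligand transcript within a library put the same values on a scale that needs no normalization between libraries. *Tnfrsf12a* over *Tnfsf12* was 0.148 to 0.283 in control libraries, 0.403 to 0.746 at day 1 and 0.388 to 0.683 at day 5. The mean ratio was 0.235 ± 0.0523 (SD, n = 5), 0.563 ± 0.153 (n = 4) and 0.522 ± 0.141 (n = 4) in the same order. The ligand transcript thus stayed the more abundant in all 13 libraries.

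*Tnfsf12* lies on chromosome 11 (chr11:69577076-69586928, minus strand) and shares 980 of its 1872 exonic bases (52.4%) with *Tnfsfm13*, a read-through transcript on the same strand that joins *Tnfsf12* to *Tnfsf13*. *Tnfsfm13*, looked at after its values were seen, averaged 40.6 ± 4.83 TPM in control (SD, n = 5), 37.5 ± 5.79 at day 1 (n = 4) and 31.9 ± 2.97 at day 5 (n = 4). Its day 5 libraries lay below all control libraries, and its log2 fold change of -0.30 was not called (adjusted p = 0.122, limma). How reads were divided between *Tnfsf12* and this transcript is therefore uncertain.

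**Figure D2:**
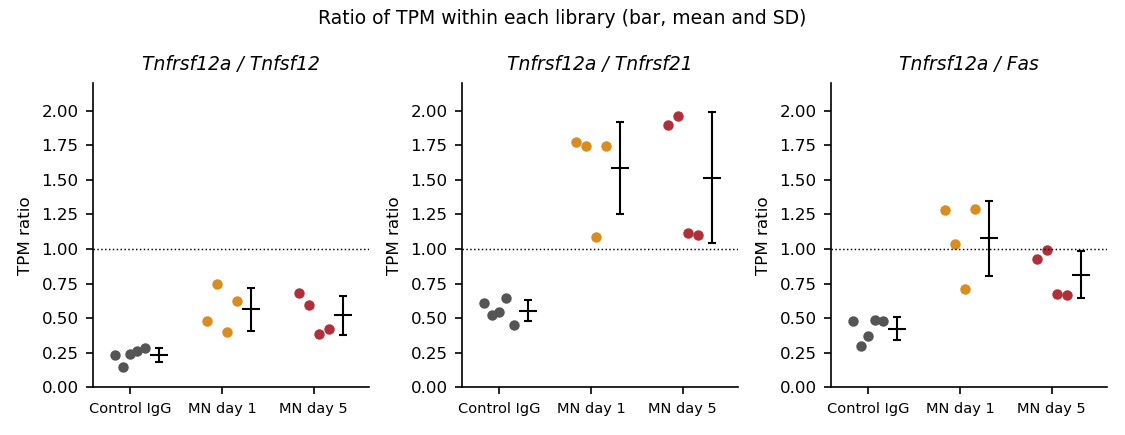
TPM of *Tnfrsf12a* divided by that of *Tnfsf12*, *Tnfrsf21* or *Fas* in the same library (points), with the mean and SD of each group, and a dotted line at equal TPM. Against *Tnfrsf21*, the 5 control ratios lie between 0.452 and 0.644 and the 8 MN ratios between 1.09 and 1.96.

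The receptors of TNF itself differed widely in level and neither was called. *Tnfrsf1a* (TNFR1, chr6:125325566-125339632) was the most abundant member in 12 of 13 libraries. Its TPM was 200, 215, 190, 187 and 161 in control, 185, 206, 162 and 179 at day 1 and 205, 203, 207 and 186 at day 5. The groups overlapped, with log2 fold changes of -0.01 at day 1 (95% confidence interval -0.19 to 0.16) and 0.11 at day 5 (-0.07 to 0.29, adjusted p = 0.515, limma).

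*Tnfrsf1b* (TNFR2, chr4:144938938-144973477), found mainly on leukocytes and endothelium, was far lower. Its TPM was 15.6, 16.7, 14.1, 13.9 and 10.2 in control, 12.995, 13.03, 15.3 and 12.7 at day 1 and 13.98, 14.7, 15.2 and 11.3 at day 5. Its log2 fold change was close to 0 at day 1 (95% confidence interval -0.27 to 0.27) and 0.01 at day 5 (-0.26 to 0.28), and its sign changed with the scaling at day 5 (-0.02 without further scaling). *Tnfrsf1a* exceeded *Tnfrsf1b* by a mean factor of 13.7 ± 1.24 in control (SD, n = 5), 13.7 ± 2.21 at day 1 (n = 4) and 14.6 ± 1.28 at day 5 (n = 4).

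The death receptors were not called either, and *Tnfrsf21* had the lowest day 5 p of the members other than *Tnfrsf12a*. *Tnfrsf21* (DR6, chr17:43327349-43400081) had a TPM of 63.7, 53.1, 75.1, 61.3 and 94.1 in control. It was 48.6, 62.4, 61.7 and 55.7 at day 1 and 57.6, 45.8, 52.9 and 56.6 at day 5. Of the 8 MN libraries, 3 lay below all control libraries and the others within the control range, and control replicate 5 was the highest of all. The log2 fold change was -0.21 at day 1 (95% confidence interval -0.54 to 0.11, adjusted p = 0.585, limma) and -0.32 at day 5 (-0.65 to 0.00, adjusted p = 0.251, limma).

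*Fas* (chr19:34268001-34305173), the receptor of Fas ligand, had a TPM of 81.0, 92.7, 109, 81.3 and 89.0 in control libraries. It was 67.4, 105, 94.6 and 75.4 at day 1 and 117, 90.4, 87.8 and 93.5 at day 5. The highest and the lowest library both belonged to MN mice. The log2 fold change was -0.05 at day 1 (95% confidence interval -0.35 to 0.25) and 0.14 at day 5 (-0.17 to 0.44, adjusted p = 0.672, limma).

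*Tnfrsf10b* (DR5, chr14:70004916-70021860), the mouse receptor of TRAIL, was scarce. It had 3.13 to 4.59 TPM in control, 3.30 to 5.42 at day 1 and 4.20 to 4.75 at day 5, with the narrowest spread at day 5. Its log2 fold change was 0.11 at day 1 (95% confidence interval -0.20 to 0.42) and 0.23 at day 5 (-0.08 to 0.55, adjusted p = 0.410, limma).

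*Tnfrsf11b* and *Tnfrsf19* complete the group at low levels. *Tnfrsf11b* (chr15:54114015-54142075) encodes osteoprotegerin, a soluble decoy for RANKL and TRAIL, and had 4.80 to 7.05 TPM in control, 4.33 to 6.17 at day 1 and 4.07 to 5.79 at day 5. Its log2 fold changes were -0.05 (95% confidence interval -0.36 to 0.27) and -0.04 (-0.35 to 0.27). *Tnfrsf19* (TROY, chr14:61201283-61284366) was the lowest member in every library. Its TPM was 1.502, 1.35, 1.02, 0.552 and 0.795 in control, 1.87, 1.16, 1.10 and 1.66 at day 1 and 0.847, 1.01, 1.58 and 1.15 at day 5. Its intervals were the widest of the 9, with log2 fold changes of 0.39 at day 1 (95% confidence interval -0.12 to 0.89, adjusted p = 0.520) and 0.13 at day 5 (-0.37 to 0.64, adjusted p = 0.819), both by limma.

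**Figure D3:**
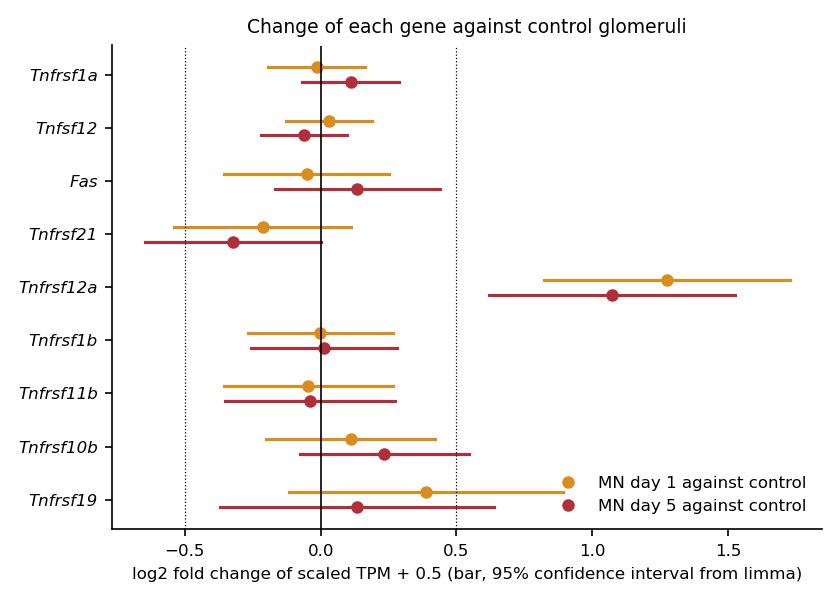
Log2 fold change of each gene at day 1 and day 5 against control on the log2(scaled TPM + 0.5) scale (points) with the 95% confidence interval from limma (bars), in order of control TPM. Dotted lines mark 0.5 in each direction. The intervals of *Tnfrsf12a*, from 0.82 at day 1 and from 0.62 at day 5, lie wholly above 0.5, and those of the other 8 genes include 0.

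For the 8 members other than *Tnfrsf12a*, day 1 and day 5 log2 fold changes lay between -0.32 and 0.39. By limma, 0 of these 8 had an unadjusted p under 0.05 at either day. Of all tested genes, 12.6% did at day 1 and 20.1% at day 5. Between day 5 and day 1 MN libraries, 0 of 9 members were called (1.81% of all tested genes). An unadjusted p under 0.05 was found for 0 of 9 (15.5% of all tested genes, limma). The intervals against control exclude neither small changes nor, for *Tnfrsf19*, *Tnfrsf21* and *Tnfrsf10b*, changes larger than the threshold of 0.5, and between the days this held for *Tnfrsf12a*, *Tnfrsf19* and *Fas*.

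The increase moved *Tnfrsf12a* up the order of the group. By mean control TPM the order was *Tnfrsf1a* (191 ± 19.7), *Tnfsf12* (164 ± 16.1), *Fas* (90.7 ± 11.6), *Tnfrsf21* (69.5 ± 15.9), *Tnfrsf12a* (37.9 ± 5.81), *Tnfrsf1b* (14.1 ± 2.46), *Tnfrsf11b* (5.42 ± 0.928), *Tnfrsf10b* (3.85 ± 0.532) and *Tnfrsf19* (1.04 ± 0.39), each with its SD over 5 libraries. The ranges of *Tnfrsf1a* and *Tnfsf12* and those of *Fas* and *Tnfrsf21* overlapped between control libraries, and all other neighbours were apart. *Tnfrsf12a* was the fifth most abundant of the 9 in all 5 control libraries. It was the third in 3 day 1 libraries, the fourth in the other day 1 library and the fourth in all 4 day 5 libraries.

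It passed *Tnfrsf21* in every MN library. The ratio of *Tnfrsf12a* to *Tnfrsf21* was 0.452 to 0.644 in control, 1.09 to 1.78 at day 1 and 1.10 to 1.96 at day 5. Against *Fas*, the ratio rose from 0.300 to 0.486 in control to 0.712 to 1.29 at day 1, above 1 in 3 of 4 libraries, and was 0.665 to 0.993 at day 5. The other 8 genes kept their places to within 1 or 2 ranks in all libraries.

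Of the ligands other than TWEAK, those of TNFR1, TNFR2, Fas, DR5 and osteoprotegerin were looked at, and most were scarce. *Tnf* reached at most 0.481 TPM and *Lta*, the other ligand of the TNF receptors, 0.592. *Fasl*, the ligand of Fas, was listed at 0 in 12 libraries and at 0.0494 in the other one. *Tnfsf11*, which encodes RANKL, was listed at 0 in all 13. *Tnfsf10*, which encodes TRAIL, was the exception with 8.39 to 16.3 TPM in control, 10.6 to 26.1 at day 1 and 9.77 to 20.4 at day 5. Its log2 fold change was 0.46 at day 1 (adjusted p = 0.472) and 0.28 at day 5 (adjusted p = 0.605), both by limma.

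Of 17 other TNF family ligands, these included, 6 passed the filter and 0 were called at either day. By limma, 0 of these 6 had an unadjusted p under 0.05 at day 1 and 2 at day 5. Of all tested genes, 0.0908% were called at day 1 and 3.21% at day 5, and 12.6% and 20.1% had an unadjusted p under 0.05. The median log2 fold change of the 6 ligands was 0.04 at day 1 and 0.12 at day 5, where that of all tested genes was 0.00 at both days. The lowest p at day 5 was that of *Tnfsf15*, which encodes the cytokine TL1A, with 0.532 to 1.09 TPM in control and 1.37 to 1.96 at day 5. Its libraries did not overlap, and its log2 fold change of 0.71 (95% confidence interval 0.28 to 1.14) missed the threshold with an adjusted p of 0.0529 (limma). *Tnfsf13*, which encodes APRIL, had 10.2 to 12.1 TPM in control and 4.03 to 11.1 at day 5 (log2 fold change -0.60, adjusted p = 0.130, limma), and its exons also enter the *Tnfsfm13* read-through.

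Of 20 other TNF receptors, 13 passed the filter and 0 were called at either day (0.0908% of all tested genes at day 1, 3.21% at day 5). By limma, 3 had an unadjusted p under 0.05 at day 1 (23.1%, against 12.6% of all tested genes) and 4 at day 5 (30.8%, against 20.1%). Their median log2 fold change was -0.03 at day 1 and -0.02 at day 5. *Tnfrsf22*, a mouse TRAIL receptor that lacks a death domain, had 20.6 to 32.04 TPM in control, 28.3 to 36.6 at day 1 and 29.4 to 39.5 at day 5 (day 5 log2 fold change 0.40, adjusted p = 0.0622, limma). *Tnfrsf25*, the death receptor DR3 that binds TL1A, had 15.6 to 26.2 TPM in control, 3.47 to 16.6 at day 1 and 7.84 to 9.99 at day 5. All 4 day 5 libraries of *Tnfrsf25* lay below all control libraries, and its log2 fold change of -1.01 had an adjusted p of 0.109 (standard error 0.34, limma).

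**Figure D4:**
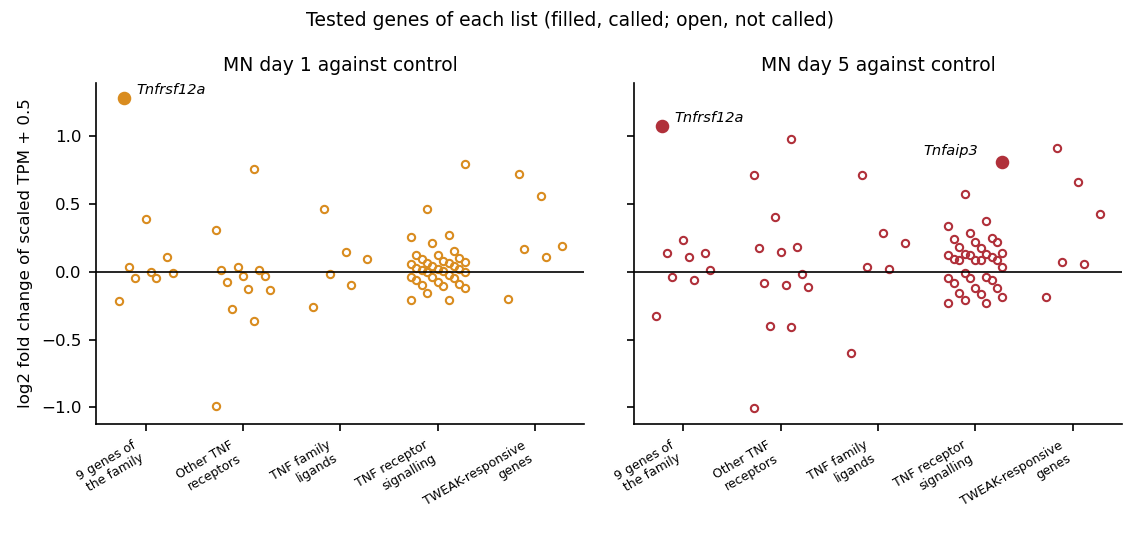
Log2 fold change of the tested genes of each list at day 1 and day 5 against control on the log2(scaled TPM + 0.5) scale, with called genes filled and labelled. Filled points are *Tnfrsf12a* at 1.27 and 1.07, and *Tnfaip3* at 0.81 at day 5.

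Signalling genes downstream of these receptors were all expressed. Of 37 genes for TRAF adaptors, death domain adaptors, kinases, caspase 8, ubiquitin enzymes and the NF-κB branch that TWEAK engages, 37 passed the filter. At day 1, 0 were called (0.0908% of all tested genes were), and 5 had an unadjusted p under 0.05 (13.5%, against 12.6%), by limma. At day 5, 1 was called, about the count that the share of all tested genes called (3.21%) would give. By limma, 11 had an unadjusted p under 0.05 at day 5 (29.7%, against 20.1% of all tested genes). The median log2 fold change was 0.02 at day 1 and 0.09 at day 5.

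The called gene was *Tnfaip3*, which encodes A20, an inhibitor of NF-κB signalling downstream of TNF receptors. It had 4.97 to 8.88 TPM in control, 9.68 to 16.2 at day 1 and 11.7 to 13.4 at day 5, with no overlap at either day. The day 5 change was 0.81 on the log2 scale (95% confidence interval 0.46 to 1.16, adjusted p = 0.00867, limma), and the day 1 change of 0.79 was not called (adjusted p = 0.109, limma). The day 1 call was gained when control replicate 5 was left out (adjusted p = 0.0387, limma).

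Of the 37 genes, 4 passed on p alone at day 5 (6.12% of all tested genes did), and those besides *Tnfaip3* were *Nfkb2*, *Traf5* and *Tab2*, with changes below 0.5 on the log2 scale. *Nfkb2*, which encodes the precursor of the p52 subunit, had 22.5 to 28.7 TPM in control and 28.2 to 34.1 at day 5 (log2 fold change 0.34, adjusted p = 0.0342). *Traf5*, which encodes an adaptor, had 9.45 to 11.8 TPM in control and 12.7 to 13.3 at day 5 (0.28, adjusted p = 0.0451). *Tab2*, which encodes an adaptor of the kinase TAK1, had 70.3 to 79.4 TPM in control and 56.3 to 67.0 at day 5 (-0.23, adjusted p = 0.0289), and these p are from limma. The adaptor *Traf2* (day 5 log2 fold change 0.17, adjusted p = 0.272) and the kinase *Map3k14* (NIK, -0.06, adjusted p = 0.831), named after their values were seen, were not called.

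Of 9 cytokine and adhesion genes that TWEAK is known to induce in kidney cells, 6 passed the filter. At either day 0 of these 6 were called, a count that the share of all tested genes called (0.0908% at day 1 and 3.21% at day 5) would also give. By limma, 0 of 6 had an unadjusted p under 0.05 at day 1 (12.6% of all tested genes) and 1 of 6 at day 5 (16.7%, against 20.1%). Their median log2 fold change was 0.18 at day 1 and 0.25 at day 5. *Cxcl1*, a neutrophil chemokine, had 0.961 to 2.93 TPM in control, 2.21 to 3.49 at day 1 and 1.38 to 5.72 at day 5 (day 5 log2 fold change 0.91 with an adjusted p of 0.153, limma). *Cxcl10*, a T cell chemokine, had a day 5 log2 fold change of 0.66 (adjusted p = 0.364, limma). *Ccl2*, *Ccl20* and *Il6* did not pass the filter, and *Il6* was listed at 0 in all 13 libraries.

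The 8 genes whose pattern was most like that of *Tnfrsf12a* were ranked by Pearson r over the 13 libraries on the log2(scaled TPM + 0.5) scale, as a description without a test. The libraries share groups and scaling, so r also reflects the difference between groups. They were *Myl6* (r = 0.916), *Maff* (0.911), *Tuba1b* (0.905), *Actg1* (0.895), *Ctps* (0.894), *Zmpste24* (0.894), *Anxa3* (0.891) and *Rtn2* (0.889). Of these, *Myl6* encodes a myosin light chain, *Tuba1b* and *Actg1* encode tubulin and actin, and *Maff* encodes a small Maf transcription factor.

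**Figure D5:**
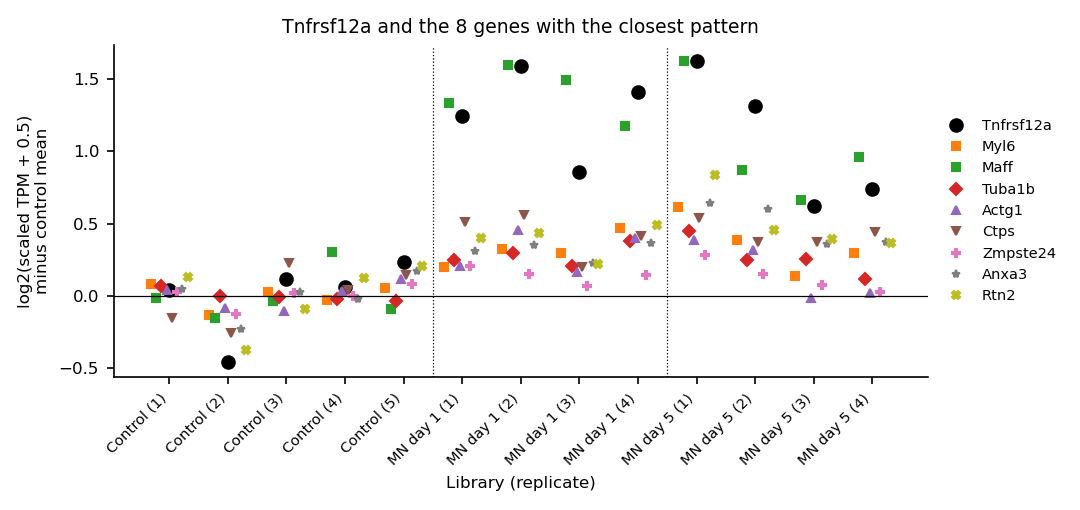
*Tnfrsf12a* (black circles) and the 8 genes with the highest Pearson r with it in each of the 13 libraries, as log2(scaled TPM + 0.5) minus the control mean. *Maff* reaches changes of the size of *Tnfrsf12a*, with log2 fold changes of 1.40 at day 1 and 1.03 at day 5, and the other 7 genes have log2 fold changes between 0.13 and 0.51.

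Within groups, after the group means were taken out, r with *Tnfrsf12a* ran from 0.553 for *Maff* to 0.911 for *Anxa3*. *Maff* was called at both days and *Rtn2* at day 5 (log2 fold change 0.51, adjusted p = 0.0403, limma), and the other 6 genes were not called. Control replicate 2, with the lowest *Tnfrsf12a* of all libraries, was also the lowest control library for 6 of the 8 genes, all but *Tuba1b* and *Actg1*. Because the 8 genes were picked by r over these same libraries, low values in control replicate 2 follow in part from that choice. The same holds for their r within groups and for the contrast with the other members, which were not picked by r. Without control replicate 2, r of the 8 genes with *Tnfrsf12a* was 0.848 to 0.912 over 12 libraries. The other members of the family had r between -0.25 and 0.25 with *Tnfrsf12a*.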

How the data were processed

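Glomerular RNA of 13 mice was sequenced as paired reads on an Illumina NovaSeq. Per the labels, the authors used FastQC 0.11.9, Trimmomatic 0.39 and kallisto 0.46.2 with GRCm39, and deposited TPM, 1 value per gene symbol and library. The authors tested counts with DESeq2, and counts were not used here. Depth is therefore unknown, and no counting interval was given. How transcripts were summed to symbols is not given in the sources used here.

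Each library was divided by its median-of-ratios factor (0.955 to 1.04, from the 15772 genes with no zero), and values were analysed as log2(scaled TPM + 0.5). The 14322 genes that reached a TPM of 1 in 4 or more libraries were tested, all 3 groups in 1 fit, with limma 3.58.1 in R 4.3.3 (trended eBayes), 2-sided, with adjustment within each comparison. Groups came from the labels. The procedure was tested on simulated data. Library totals were 989774 to 996064 TPM, and Spearman correlations between libraries over tested genes were 0.971 to 0.988.

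The members and gene lists were chosen with earlier results of these data known. Genes named were the members, their ligands, called genes of each list and, where fewer than 2 were called, the 2 with the smallest day 5 p, the 8 genes most like *Tnfrsf12a*, and markers beside a result. Outside this rule, *Nfkb2*, *Traf5*, *Traf2*, *Map3k14*, *Relt*, *Ccl2*, *Ccl20*, *Il6*, *Tnfsfm13* and *Hcfc1r1* were named after their values were seen. Loci came from GENCODE vM39. The labels do not say what replicate numbers mean, and the main fit did not pair mice by them. Alternatives covered pseudocounts, scaling, filters, the trend, the groups fitted, a replicate block, a tubular marker covariate, weights, p alone and each library left out.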

Additional observations from a re-analysis of the deposited data

Results flagged for a closer look

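Groups were screened for a library that stood apart by Dixon's 95% criterion, over 32 genes named here and 3 groups each. Of 96 groups, 7 were marked, and chance alone marks about 1 group in 20. Control replicate 2 had a *Tnfrsf12a* TPM of 27.8, with 38.7 to 42.5 in the other control mice. The same library had the highest *Tnfrsf11b* TPM of its group, 7.05 against 4.80 to 5.26, and the lowest *Zmpste24* TPM, 49.9 against 53.6 to 54.6. *Zmpste24* was picked by its r with *Tnfrsf12a* over libraries that include this one. Without control replicate 2, the log2 fold change of *Tnfrsf12a* was 1.16 at day 1, which was no longer called. Day 1 replicate 3 had the highest TPM of its group for *Tnfrsf1b*, 15.3 against 12.7 to 13.03, and for *Tab2*, 69.5 against 63.5 to 63.8. Control replicate 4 had a *Maff* TPM of 7.86 against 5.59 to 6.17, and day 5 replicate 1 had an *Rtn2* TPM of 12.5 against 9.36 to 9.86. Causes were not tested.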

How the results depend on the processing

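The day 5 increase of *Tnfrsf12a* was called under all 11 other settings and in all 13 fits that left out 1 library. The day 1 increase was not called without the filter (1.27, adjusted p = 0.105), without the trend (1.27, 0.0817), with 2 groups in the fit (1.27, 0.0544) or with the tubular covariate (1.00, 0.303), all by limma, and 0 members were then called. The covariate turned the sign of *Tnfrsf12a* between the days (0.093). Fits without 1 library gave 1.16 to 1.41 at day 1, 0.89 to 1.22 at day 5, -0.38 to -0.05 between the days, and 0 to 1 members called at day 1. Over all genes, day 1 calls numbered 13, against 218 without control replicate 5, 72 without control replicates 2 and 5 (chosen after seeing the data, where *Tnfrsf12a* was 1.20 and 1.00 and called at both days), 6 without the filter, 7 without the trend, 2 with 2 groups, 0 with the covariate (1193 with an unadjusted p under 0.05, limma) and 3 to 18 in the other fits without 1 library.

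Same-numbered libraries did not deviate together (12 pairs, r from -0.06 to 0.09). With the replicate number as a block, *Tnfrsf12a* was 1.33 (adjusted p = 0.0391) and 1.13 (0.0265), still called, while all-gene calls were 149 at day 1 and 348 at day 5.

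At day 5, the ligand list had 1 call (*Tnfsf15*) with a pseudocount of 1, without the filter or without the trend, and 1 (*Tnfsf13*) without day 5 replicate 4. Other receptors had 1 call (*Tnfrsf25*) with 2 groups and 2 (*Tnfrsf25*, *Relt*) without day 1 replicate 1. Signalling genes had 4 on p alone, and 1 at day 1 without control replicate 5. The TWEAK-responsive list had 1 (*Cxcl1*) without day 5 replicate 3.

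Members near 0 turned sign. At day 1 these were *Tnfsf12* (-0.014 without scaling) and, with the covariate, *Tnfrsf1a* (0.11), *Tnfrsf1b* (0.31), *Tnfrsf11b* (0.098) and *Fas* (0.056). Array weights gave *Tnfrsf1a* 0.00061, and leaving out both controls gave *Tnfrsf11b* 0.033. At day 5, *Tnfrsf1b* was -0.022 without scaling, -0.082 with the block, -0.0094 with the covariate, -0.039 with weights and -0.041 without both controls, where *Tnfrsf11b* was 0.038. Between the days, the covariate gave *Tnfrsf1a* -0.0069, *Tnfrsf1b* -0.32, *Tnfrsf11b* -0.15 and *Tnfrsf21* 0.19, and weights gave *Tnfrsf11b* -0.022. Leaving out 1 library gave, at day 1, *Tnfsf12* -0.021 to 0.075, *Tnfrsf1a* -0.080 to 0.053, *Tnfrsf1b* -0.095 to 0.054, *Tnfrsf11b* -0.14 to 0.038, *Tnfrsf10b* -0.019 to 0.19 and *Fas* -0.16 to 0.055. At day 5 it gave *Tnfrsf1b* -0.083 to 0.11 and *Tnfrsf11b* -0.11 to 0.065, and between the days -0.028 to 0.11 and -0.068 to 0.11. The cause of these changes was not tested.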
